A study of Mus musculus with 19 samples.

Results

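Border-associated macrophages are the resident macrophages of the perivascular spaces, meninges and choroid plexus of the brain. Their transcripts were followed here through 9 genes, Mrc1, Cd163, Stab1, Lyve1, Siglec1, Ms4a7, Pf4, F13a1 and Cbr2, which were chosen by name and matched to Ensembl identifiers. All 9 were found among the 48709 genes of the count tables, and all 9 were among the 19286 genes that passed the filter on low counts (a minimum of 5 reads in 50% or more of the 19 libraries). RNA was sequenced from microdissected CA1 tissue of the dorsal hippocampus of male wild-type C57B/6J mice to ask how blocking 3 microRNAs (miR-146a-5p, miR-181a-5p and also miR-148a-3p) alters gene expression in the aged brain. The young group (n = 6) was 3 months old and the old control group (n = 6) was 16.5 months old, and per the study's methods both received scrambled control oligonucleotides in lipid nanoparticles, although the titles of both also carry the words anti-miR-mix. The old anti-miR-mix group (n = 7), also 16.5 months old, received in the same particles a mixture of inhibitory oligonucleotides against the 3 microRNAs. All 3 groups were injected into the dorsal hippocampus, so old control and young differed by age and the old groups differed by the oligonucleotide. The labels number the libraries within a group and name no animal, so that p-values measure the spread between these libraries.

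Border-associated macrophages derive from early progenitors, sit outside the brain tissue proper along arterioles, venules and the pia, and clear material from the fluid that surrounds the vessels. They are told from microglia, the macrophages of the tissue itself, by scavenger receptors that take up glycoproteins, haemoglobin complexes and hyaluronan, and by a few secreted proteins. Several of these genes are shared with other cells. Lyve1 is also used by lymphatic endothelium, Stab1 by sinusoidal endothelium and microglia, Pf4 and F13a1 by megakaryocytes and platelets, and Siglec1 is an interferon-responsive gene of many macrophages. In RNA from whole tissue, fewer cells of a type and less RNA per cell cannot be told apart.

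The agents of the study are shown first, because the old anti-miR-mix group differs from old control by these oligonucleotides. The 3 targeted microRNAs are given 5′ to 3′ from RefSeq (GRCm38.p6) with the seed, bases 2 to 8, in capitals, and no seed is shared between them.
miR-146a-5p: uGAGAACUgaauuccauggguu
miR-148a-3p: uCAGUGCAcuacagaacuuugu
miR-181a-5p: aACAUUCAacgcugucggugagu
The inhibitors from the study's oligonucleotide list follow, with the bases that pair with the seed in capitals, and after them the control oligonucleotide.
inhibitor of miR-146a-5p: acccatggaattcAGTTCTC
inhibitor of miR-148a-3p: caaagttctgtagTGCACT
inhibitor of miR-181a-5p: actcaccgacagcgtTGAATG
control: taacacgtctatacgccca
The inhibitor of miR-146a-5p paired with 7 seed positions and the other two with 6 each.

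The annotated 3′UTR of each member was searched for the complement of each seed, which is AGTTCTC for miR-146a-5p. A match was found in 0 of 9 members, against 11.1% of the 20957 genes with a 3′UTR, and the complement for miR-148a-3p, TGCACTG, matched in 0 of 9, against 12.6%. The complement for miR-181a-5p, TGAATGT, was found in 1 of 9, Cd163, against 16.4%. It lay in the 3′UTR at chr6:124329713-124329735 (GRCm38, plus strand), with the seed match in capitals.
Cd163 site: catatttgTGAATGTgaccactt
Of the members only Lyve1 (1565 bases) and F13a1 (1587 bases) had a 3′UTR longer than the median of the 20957 genes, 956 bases. The shortest were those of Pf4 (123 bases) and Stab1 (134 bases), and the shares were not adjusted for length. A match is a description of letters and was not tested as a site.

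The promoter windows of the members (250 bases before to 50 after an annotated start, RefSeq, GRCm38.p6) were searched on both strands for motifs of factors that are known in macrophages. The table held 9 windows of 7 members, among 32851 windows in all, and Siglec1 and Lyve1 were not searched. The core GAGGAA of PU.1 (the product of Spi1, which specifies myeloid cells) was present in 7 of the 9 windows, in Mrc1, Stab1, Ms4a7, Pf4, F13a1 and Cbr2, against 28.3% of all windows. The longer form GAGGAAGT, which contains that core, was present in F13a1 and Pf4, against 3.2% of all windows. The pattern GAAANNGAA of interferon-stimulated response elements was present in both windows of Ms4a7, against 8.56% of all windows, and the MAF motif TGCTGAC in Cbr2, against 4.67%. The F13a1 and Pf4 matches are shown with the PU.1 letters in capitals, and the 2 Ms4a7 matches with the response element in capitals, each 5′ to 3′ on the strand of the gene.
F13a1 (chr13:37049184-37049207, minus strand): gtccttttGAGGAAGTacccagag
Pf4 (chr5:90772417-90772440, plus strand): tgcagagcACTTCCTCatcctgta
Ms4a7 (chr19:11336201-11336225, minus strand): agcagctcTTCGTTTTCctactact
Ms4a7 (chr19:11334827-11334851, minus strand): agagaggaGAAAAGGAAcacaaaga

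Depth ran from 26653511 to 38908947 counted reads a library. The CA1 label was checked with 7 CA1 pyramidal genes, among them Wfs1, Fibcd1 and Pou3f1, which all passed the filter and together reached 825 to 1219 CPM (counts scaled to a common depth per library) in every library, against 54.9 to 124 CPM for 6 dentate granule genes. Choroid plexus genes stood apart in 3 libraries, with summed levels of 86.8 CPM in old control replicate 5, 91.5 CPM in old control replicate 6 and 113 CPM in old anti-miR-mix replicate 2, while all others lay between 22.2 and 49.7 CPM. Old control replicates 5 and 6 were also closer to each other in their counts than any other pair of libraries. Their chi-square per degree of freedom was 2.18 over 12780 genes, against 6.10 to 41.6 for all other pairs. The fits, the overlap of groups and the median correlation of the members were recomputed with their counts summed as 1 library. The permutation tests of correlations kept replicates 5 and 6 as separate libraries. The deposited log2 table carries a number from 1 to 4 for each library whose origin is not described. It is called the processing group, and group 3 holds 3 old anti-miR-mix and 2 young libraries but 0 of old control.

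The members were low in CA1 tissue. Counts per library ran from 4 to 22 for Pf4, 6 to 26 for Cbr2, 12 to 40 for Lyve1, 15 to 94 for Ms4a7, 18 to 82 for Cd163, 21 to 106 for F13a1, 23 to 224 for Siglec1, 44 to 213 for Mrc1 and 461 to 935 for Stab1. Per kilobase of exon, Stab1 had the highest mean level over the 19 libraries (1.96 CPM per kb, the 41.6th percentile of all tested genes). Mrc1 (0.477) and Pf4 (0.474) followed, then Cbr2 (0.329), Siglec1 (0.302), Lyve1 (0.256), Ms4a7 (0.241), F13a1 (0.233) and Cd163 (0.186 CPM per kb, the 10.1th percentile). Stab1 stood clear of the rest in every library, and the neighbours below it in this order overlapped in their ranges over libraries. The spread within groups was 1.89 times counting noise for Cbr2 and 1.90 for Pf4 (chi-square per degree of freedom), 3.22 for Lyve1 and 3.93 for Cd163, and reached 11.9 for Siglec1 and 15.8 for Mrc1. Counts of Pf4 and Cbr2 thus limit what can be seen of these genes at this depth.

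The comparisons were made in 3 pairs of groups, each with edgeR's quasi-likelihood test over all 19286 genes and Benjamini-Hochberg adjustment. With age (old control against young), 0 of the 9 members changed at an adjusted p under 0.05, against 2.67% of all tested genes (1.32% higher and 1.34% lower), and 2 had an unadjusted p under 0.05, against 18.1%. The DESeq2 test also called 0, with no adjusted p for Cbr2, Lyve1 and Pf4. In 0 of the 9 members were the groups apart without overlap, against 2.54% of all tested genes. The median log2 fold change of the members was −0.17, beside 0.0064 over all tested genes. Under anti-miR-mix (old anti-miR-mix against old control), Siglec1 rose and was the 1 of 9 members called, against 0.669% of all tested genes, all of them higher. Siglec1 was also the 1 of 9 members whose groups did not overlap, against 0.498%. Ms4a7 and Stab1 had an unadjusted p under 0.05 as well, 3 of 9 in all, against 10.5%, and 8 of 9 fitted changes were above 0, with a median of 0.29 beside 0.00035 over all tested genes. The DESeq2 test called 3 members in this comparison, Siglec1, Ms4a7 and Stab1, among 267 of all 19286 genes. Between old anti-miR-mix and young, Siglec1 and Ms4a7 were higher, 2 of 9 members called against 6.2% of all tested genes (4.57% higher), and in 0 of 9 members the groups did not overlap, against 2.42%. At an unadjusted p under 0.05 there were 4 of 9, against 19.6%. In that comparison the median was 0.04 beside 0.0028. The comparisons share libraries in pairs, and each gene's values are given side by side.

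**Figure D1:**
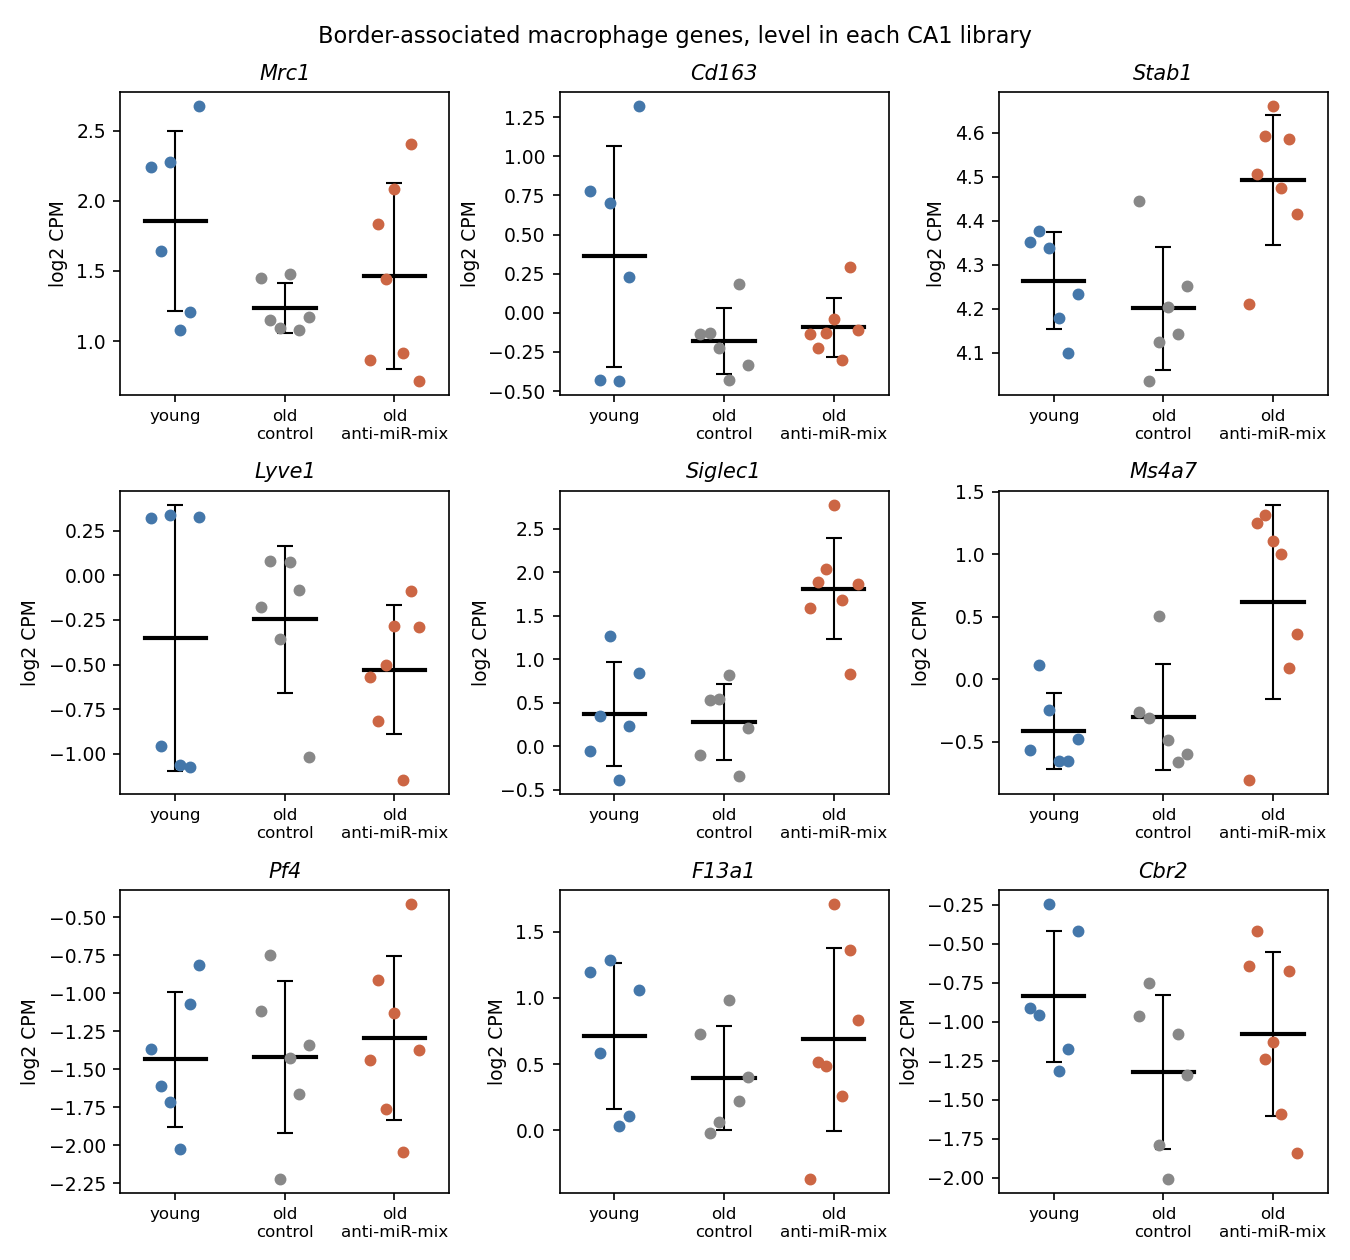
Each panel plots the log2 CPM (prior count of 2) of 1 gene in every library, with the group mean as a horizontal line and the SD as error bars, for young and old control (n = 6 each) and for old anti-miR-mix (n = 7). The 7 old anti-miR-mix libraries of Siglec1 sit between 0.84 and 2.78, all above the 6 old control libraries, while in the other 8 genes these 2 groups overlap.

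The adhesion receptor Siglec1 (sialoadhesin, which binds sialic acids on other cells and on particles) had the largest change of the 9 members under anti-miR-mix. It lies at chr2:131069220-131086765 on the minus strand (GRCm38, GENCODE M21, as for the other members). Its log2 CPM had a lowest, median and highest value of −0.39, 0.29 and 1.27 in young, of −0.34, 0.37 and 0.82 in old control and of 0.84, 1.87 and 2.78 in old anti-miR-mix. All 7 old anti-miR-mix libraries lay above the highest old control, although replicate 6, at 0.84, exceeded it narrowly, and replicate 4 was the highest. The log2 fold change was 1.64 ± 0.29 (SE), 3.11-fold with a 95% interval of 2.06 to 4.71 (edgeR, adjusted p = 0.0115). Against young the change was 1.47 ± 0.28 (adjusted p = 0.00215), and 6 of the 7 libraries exceeded the highest young one, replicate 3. With age it was −0.17 ± 0.32 (adjusted p = 0.835). With the processing group as a factor the change under anti-miR-mix was 1.33 ± 0.29 and was no longer called (adjusted p = 0.132), whereas that against young was 1.31 ± 0.27 (adjusted p = 0.00549). With the processing group as a linear term instead, the change under anti-miR-mix was 1.64 ± 0.30 and stayed called (edgeR, adjusted p = 0.0182). Within processing groups 1, 2 and 4 old anti-miR-mix exceeded old control by 1.37, 1.20 and 0.90 on the log2 scale, with 1, 2 and 1 old anti-miR-mix libraries.

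Ms4a7, a membrane-spanning protein of the MS4A family that marks macrophages other than resting microglia, lies at chr19:11321039-11336146 on the minus strand. The log2 CPM of Ms4a7 had a lowest, median and highest value of −0.66, −0.52 and 0.11 in young, of −0.67, −0.40 and 0.51 in old control and of −0.81, 1.00 and 1.31 in old anti-miR-mix. Old anti-miR-mix replicates 2 to 5 stood above every other library, while replicate 1 was the lowest of all 19, so the group spanned the full range. The log2 fold change under anti-miR-mix was 1.09 ± 0.29, 2.13-fold, and missed the threshold (edgeR, adjusted p = 0.0898). Without old anti-miR-mix replicate 1 it was 1.25 (adjusted p = 0.0103), without its replicate 6 it was 1.19 (adjusted p = 0.0422) and without old control replicate 3 it was 1.30 (adjusted p = 0.0429), each past the threshold. Against young it was 1.25 ± 0.29 (adjusted p = 0.0103), with 5 of 7 libraries above the highest young one, and with age 0.15 ± 0.32 (adjusted p = 0.855). The processing group as a factor gave 0.71 ± 0.27 under anti-miR-mix (adjusted p = 0.655) and 1.04 ± 0.25 against young (adjusted p = 0.015). Within processing group 1 the difference from old control was −0.52, and in groups 2 and 4 it was 0.79 and 0.72.

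Stab1 (stabilin-1) clears modified lipoproteins and matrix fragments and was the most strongly and most evenly expressed member. It lies at chr14:31139013-31168641 on the minus strand, where its exons overlap those of Nt5dc2 on the opposite strand. Strand use in counting is not given in the sources used here, so reads of the pair cannot be told apart in the overlap. Stab1 had in log2 CPM a lowest, median and highest value of 4.10, 4.29 and 4.38 in young, of 4.04, 4.17 and 4.44 in old control and of 4.21, 4.51 and 4.66 in old anti-miR-mix. In old anti-miR-mix 5 of 7 libraries exceeded every old control and 6 of 7 exceeded every young library, and replicate 1 exceeded neither. The fitted change was small with a narrow interval, 0.29 ± 0.07 under anti-miR-mix or 1.22-fold (95% interval 1.10 to 1.36), just outside the threshold (edgeR, adjusted p = 0.0635). Against young it was 0.24 ± 0.07 (adjusted p = 0.0524), and with age −0.06 ± 0.07 (adjusted p = 0.743). Stab1 was called under anti-miR-mix without old control replicate 1 (0.35, adjusted p = 0.0477) or old anti-miR-mix replicate 1 (0.33, adjusted p = 0.0112). Against young it was called without young replicate 2 (0.26, adjusted p = 0.0393), old control replicate 1 or 2 (0.24 each, adjusted p = 0.0329 and 0.0481) or old anti-miR-mix replicate 1 (0.28, adjusted p = 0.0101). Without old control replicate 2 the change under anti-miR-mix was 0.26 (edgeR, adjusted p = 0.182). The processing group as a factor gave 0.26 ± 0.08 under anti-miR-mix (edgeR, adjusted p = 0.486) and 0.22 ± 0.08 against young (adjusted p = 0.0886), neither called. Within processing groups 1, 2 and 4 the difference from old control was −0.03, 0.30 and 0.39.

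Mrc1, the mannose receptor CD206, takes up glycoproteins with exposed mannose and lies at chr2:14229392-14332057 on the plus strand, around the microRNA gene Mir511. For Mrc1, log2 CPM had a lowest, median and highest value of 1.08, 1.94 and 2.68 in young, of 1.08, 1.16 and 1.48 in old control and of 0.72, 1.44 and 2.40 in old anti-miR-mix. Old control was tight (SD 0.18), whereas young (SD 0.64) and old anti-miR-mix (SD 0.66) were broad. In old anti-miR-mix 3 of 7 libraries lay above every old control and 3 of 7 below every old control. With age the log2 fold change was −0.73 ± 0.29, 1.66-fold lower, and did not pass (edgeR, unadjusted p = 0.0199, adjusted p = 0.182). Under anti-miR-mix it was 0.35 ± 0.29 with a 95% interval of −0.24 to 0.95 (adjusted p = 0.718), and against young −0.38 ± 0.27 (adjusted p = 0.491).

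Cd163, the receptor for haemoglobin bound to haptoglobin, lies at chr6:124304656-124330527 on the plus strand. Log2 CPM of Cd163 had a lowest, median and highest value of −0.44, 0.47 and 1.32 in young, of −0.43, −0.18 and 0.18 in old control and of −0.30, −0.13 and 0.29 in old anti-miR-mix. Young replicates 1, 3 and 6 were above every old library and young replicates 2 and 4 were among the lowest, so the young group held both ends. With age the log2 fold change was −0.71 ± 0.25, 1.63-fold lower (edgeR, unadjusted p = 0.00956, adjusted p = 0.127). Old anti-miR-mix was as far from young, at −0.62 ± 0.24 (adjusted p = 0.133), and differed from old control by 0.09 ± 0.25, with a 95% interval of −0.43 to 0.61 (adjusted p = 0.941). Without young replicate 6 the change was −0.45 with age and −0.36 against young, and without young replicate 4 that against young was −0.76 and was called (edgeR, adjusted p = 0.0429). Cd163 is the member with the miR-181a-5p seed match shown above.

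Lyve1, a hyaluronan receptor, lies at chr7:110850607-110863239 on the minus strand. Its log2 CPM had a lowest, median and highest value of −1.07, −0.32 and 0.34 in young, of −1.02, −0.13 and 0.08 in old control and of −1.15, −0.50 and −0.09 in old anti-miR-mix. The young libraries fell apart into replicates 1, 3 and 6, at 0.32 to 0.34, and replicates 2, 4 and 5, at −1.07 to −0.95. Lyve1 was the 1 member with a fitted change below 0 under anti-miR-mix, −0.32 ± 0.28 (edgeR, adjusted p = 0.758). The age difference was −0.0025 ± 0.29 (adjusted p = 0.998) and that between old anti-miR-mix and young −0.32 ± 0.28 (adjusted p = 0.601). Its 95% interval with age, −0.60 to 0.60, allows a ratio of 0.659 to 1.51.

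Among the secreted and cytosolic proteins, F13a1 encodes the A subunit of coagulation factor XIII, a transglutaminase, at chr13:36867178-37050244 on the minus strand, with an exon that overlaps Gm30489 on the opposite strand. Its log2 CPM had a lowest, median and highest value of 0.04, 0.82 and 1.29 in young, of −0.02, 0.31 and 0.99 in old control and of −0.37, 0.52 and 1.71 in old anti-miR-mix. Old anti-miR-mix held both the lowest library, replicate 1, and the highest, replicate 4. The fitted change was −0.35 ± 0.31 with age (edgeR, adjusted p = 0.6), 0.39 ± 0.30 under anti-miR-mix (adjusted p = 0.694) and 0.04 ± 0.29 against young (adjusted p = 0.96).

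Pf4 encodes the chemokine platelet factor, CXCL4, at chr5:90772435-90773383 on the plus strand. Its log2 CPM had a lowest, median and highest value of −2.03, −1.49 and −0.81 in young, of −2.22, −1.38 and −0.75 in old control and of −2.04, −1.37 and −0.41 in old anti-miR-mix. The 3 groups overlapped almost fully, and old anti-miR-mix replicate 6, with 22 reads, was the highest. The fitted change was 0.05 ± 0.33 with age (edgeR, adjusted p = 0.958), 0.15 ± 0.31 under anti-miR-mix (adjusted p = 0.919) and 0.19 ± 0.31 against young (adjusted p = 0.802).

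Cbr2, a carbonyl reductase of perivascular and other tissue macrophages, lies at chr11:120729489-120732114 on the minus strand. Its log2 CPM had a lowest, median and highest value of −1.32, −0.93 and −0.24 in young, of −2.01, −1.21 and −0.75 in old control and of −1.84, −1.13 and −0.42 in old anti-miR-mix. Old control reached lower than young in 3 of 6 libraries and never exceeded its highest, but the groups overlapped. The fitted change was −0.53 ± 0.30 with age (edgeR, adjusted p = 0.36), 0.28 ± 0.29 under anti-miR-mix (adjusted p = 0.81) and −0.25 ± 0.28 against young (adjusted p = 0.686).

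**Figure D2:**
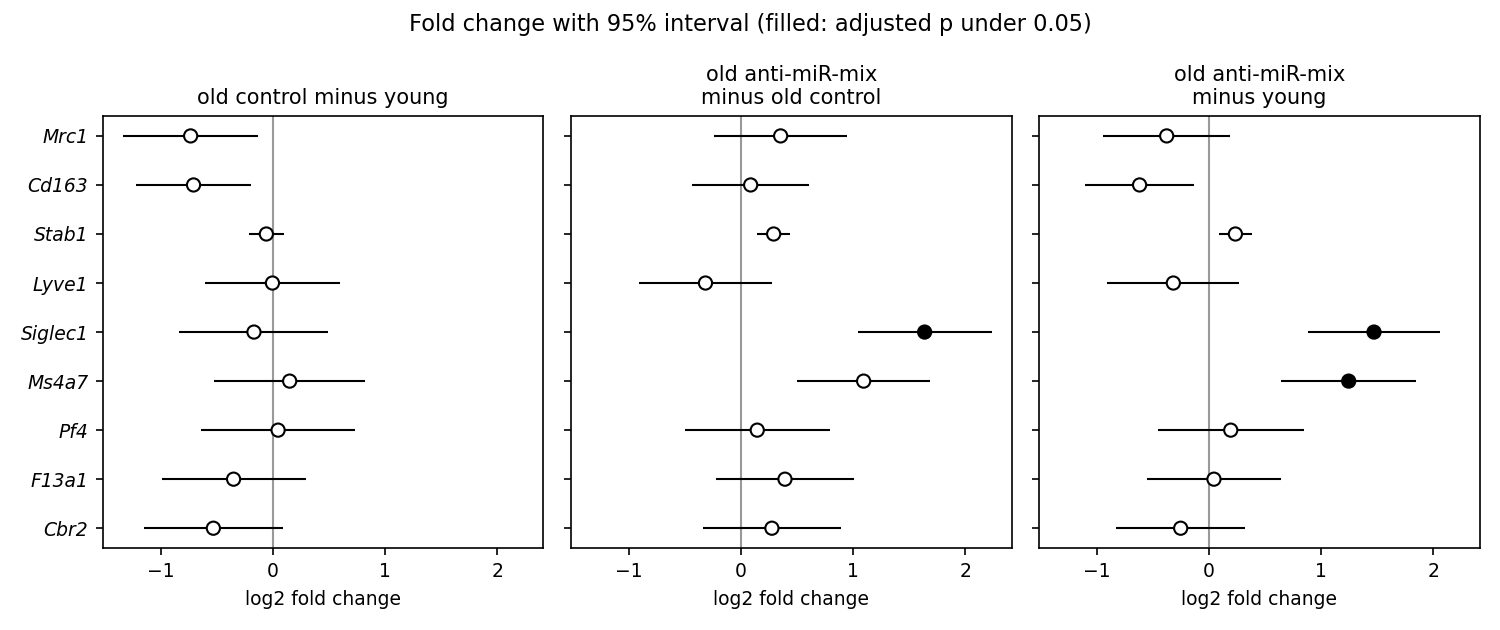
Log2 fold change of each member (edgeR, all 3 groups in 1 fit) with its 95% interval, in 3 panels for old control against young, old anti-miR-mix against old control and old anti-miR-mix against young. Filled points passed an adjusted p of 0.05, which holds for Siglec1 in the second panel and for Siglec1 and Ms4a7 in the third, and the interval of Stab1 is the narrowest in each panel.

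The levels of 2 members were also set against each other within a library, for pairs chosen after the values were seen and therefore described without a test. Siglec1 minus Mrc1 in log2 CPM was −0.96 ± 0.43 (SD, n = 6) in old control and 0.34 ± 0.90 (SD, n = 7) in old anti-miR-mix, with ranges of −1.55 to −0.55 and of −1.57 to 1.15. Old anti-miR-mix replicate 6, which had the highest Mrc1 and Pf4 of its group, had the lowest Siglec1 of its group. Ms4a7 minus Mrc1 was −1.54 ± 0.49 in old control and −0.85 ± 0.87 in old anti-miR-mix.

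Whether the members moved together was examined over the 19 libraries after each group's mean was removed from its log2 CPM, which keeps the group differences out. Over the 36 pairs of members, the median Pearson correlation was 0.36 (range −0.28 to 0.79), and 31 pairs were above 0. Each member's median correlation with all tested genes was between −0.0174 and −0.0088. By permutation of libraries within groups, 2 of 36 pairs passed an adjusted p of 0.05 for r and 4 for Spearman's rho. Mrc1 and F13a1 had r = 0.79 (permutation p = 0.00076, adjusted over the 36 pairs 0.0137) and rho = 0.80 (permutation p = 0.00055, adjusted 0.0198), and r was 0.78 without the 2 libraries farthest from the median of Mrc1. Stab1 and F13a1 had r = 0.74 (permutation p = 0.0007, adjusted 0.0137) and rho = 0.68 (permutation p = 0.00323, adjusted 0.0364), and r was 0.69 without 2 libraries. Lyve1 with Cd163 (r = 0.77, rho = 0.80) and with F13a1 (r = 0.62, rho = 0.66) passed by rho with an adjusted permutation p of 0.0364 each, and by r had adjusted permutation p values of 0.054 and 0.0575. Without 2 libraries their r was 0.72 and 0.55.

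The 9 genes did not all follow 1 pattern in these correlations. Among Mrc1, Cd163, Lyve1, F13a1, Pf4 and Cbr2, a grouping made after the values were seen, the median of the 15 pairs was 0.53 and all 15 were above 0 with the groups pooled. Within old control alone, r was below 0 for Mrc1 with Cd163 (−0.50), Cd163 with F13a1 (−0.49) and F13a1 with Cbr2 (−0.43). It was also below 0 for Mrc1 with Cbr2 (−0.24) and Cd163 with Pf4 (−0.03), and above 0 for the remaining pairs. Within young all 15 were above 0, with r = 0.87 for Mrc1 with Cd163. Within old anti-miR-mix only F13a1 with Cbr2 was below 0 (−0.10). The r within a single group was not tested. Young replicates 1, 3 and 6 were high together in Mrc1, Cd163, Lyve1 and F13a1, and young replicate 4 was low in all 4. The 8 pairs with Siglec1 had a median of 0.20 and the 8 with Ms4a7 a median of 0.05, with 4 of 8 above 0, and 0 of either passed the adjusted threshold for r or rho. The lowest pair was Ms4a7 with Pf4 (r = −0.28). Siglec1 and Ms4a7, the members called against young, had r = 0.45 and rho = 0.57 with each other (permutation p = 0.0798 and 0.0132, adjusted 0.192 and 0.0677). When the mean of each processing group within a group was removed instead, the median of all pairs was 0.59 and that of the Siglec1 pairs 0.66, so the lower correlations of Siglec1 were not seen under that setting. The Ms4a7 pairs stayed lower, with a median of 0.19 and 6 of 8 above 0. This setting leaves no deviation in the 4 libraries that are alone in their processing group, young replicates 1 and 2 and old anti-miR-mix replicates 1 and 6. Where only 2 libraries share a processing group within a group, their deviations are equal and opposite. The medians under this setting thus rest on fewer free values than those above and are not directly comparable with them.

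**Figure D3:**
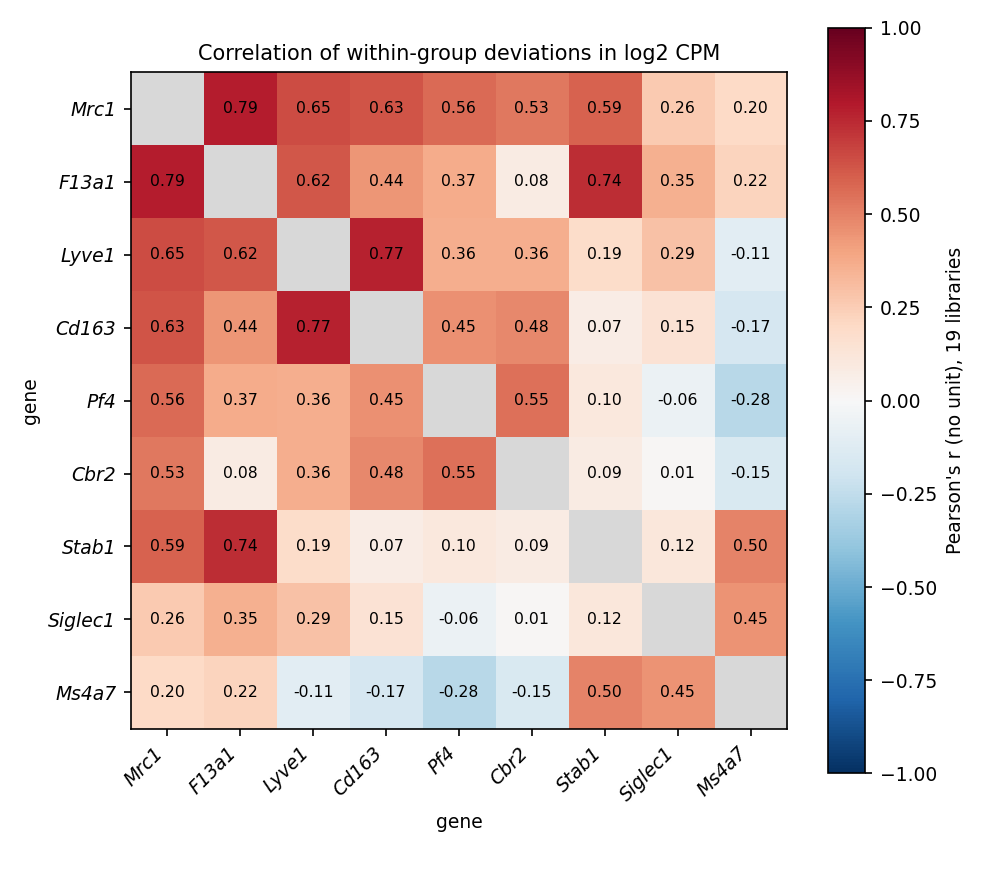
The grid gives Pearson's r for each pair of members over 19 libraries, from deviations in log2 CPM from the group mean, with the colour running from −1 (blue) to 1 (red). The block from Mrc1 to Cbr2 is above 0 throughout, from 0.08 to 0.79, while the rows of Siglec1 and Ms4a7 hold the pairs at or below 0.01.

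Marker genes of other cells were followed beside the members, from lists chosen by known biology, and their part in the results was not tested. Of the 16 activated microglia genes, 12 were called higher under anti-miR-mix (edgeR), with a median log2 fold change of 0.71 over the 16, among them Cst7 (2.10 ± 0.40, adjusted p = 0.0206), Lgals3 (2.00 ± 0.46, adjusted p = 0.0457) and Spp1 (1.94 ± 0.38, adjusted p = 0.0221). Of 13 homeostatic microglia genes 2 were called higher, among them Fcrls (0.62 ± 0.10, adjusted p = 0.00773), and of 12 pan-myeloid genes 5, led by Lyz2 (1.25 ± 0.29, adjusted p = 0.0448), Itgb2 (0.86 ± 0.17, adjusted p = 0.0206) and Ptprc (0.78 ± 0.16, adjusted p = 0.0259). The summed activated list ran from 2077 to 2426 CPM in old control and from 2450 to 3253 CPM in old anti-miR-mix, without overlap. Of the 19 growth factors and identity regulators of macrophages, 5 were called higher, and Irf8 (0.74 ± 0.15, adjusted p = 0.0248), Il10ra (0.54 ± 0.10, adjusted p = 0.0165) and Tgfb1 (0.54 ± 0.11, adjusted p = 0.027) had the largest changes. In all of these lists 0 genes were called lower. Against young, 14 of 16 activated microglia genes, 11 of 13 homeostatic microglia genes and 12 of 12 pan-myeloid genes were called higher. Of the 19 regulators, 12 were called higher against young. With age, 4 of 13 homeostatic microglia genes were called higher, and 0 of the activated, pan-myeloid and regulator genes. Over all 19286 tested genes, 0.669% were called under anti-miR-mix, 2.67% with age and 6.2% against young. At an unadjusted p under 0.05 (edgeR) the shares were 10.5%, 18.1% and 19.6%. These shares apply to the lists below too. With the processing group as a factor only 9 genes in all were called under anti-miR-mix, fewer than the 12 of the activated list alone. With the processing group as a linear term 93 genes were called.

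A further 25 border macrophage genes outside the members were examined, of which 18 passed the filter. Under anti-miR-mix 0 of 18 were called, against 0.669% of all tested genes, with a median of 0.39. At an unadjusted p under 0.05 there were 8, against 10.5%. With age 0 of 18 were called, against 2.67%, with a median of 0.05. At an unadjusted p under 0.05 there were 3 of 18, near the 18.1% of all tested genes. Against young, 5 of 18 were called higher, against 4.57% of all tested genes, with a median of 0.57. They included Clec12a, an inhibitory lectin receptor with a mean of only 10.4 counts per library (1.60 ± 0.44, edgeR, adjusted p = 0.0338). The MS4A family genes Ms4a6c (1.25 ± 0.34, adjusted p = 0.0307) and Ms4a6d (1.19 ± 0.23, adjusted p = 0.00278) were also among them, and none was called lower. Of the 18, 14 had a fitted change above 0 against young. Cd38 (−0.22), Colec12 (−0.17), Clec10a (−0.12) and Dab2 (−0.12) were below 0 and not called. The microglial and pan-myeloid lists above held larger shares of genes called higher against young. Among the genes that act beside the members, Cd68 (0.76 ± 0.13, adjusted p = 0.0102) was the 1 of 11 other scavenger receptors called under anti-miR-mix, and Cd22 (1.37 ± 0.28, adjusted p = 0.0259) the 1 of 11 other Siglec receptors and sialyltransferases. Hyaluronan genes (10) and haem-handling genes (10) had 0 calls each under anti-miR-mix, with 2 and 3 at an unadjusted p under 0.05.

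Markers of other cells that use a member were followed in the same way. Summed levels of 11 platelet and megakaryocyte genes lay between 8.41 and 10.3 CPM in young, 8.61 and 10.7 CPM in old control and 9.69 and 10.7 CPM in old anti-miR-mix, with Gp6 at or under 3 counts in every library, and 0 of the 5 tested were called under anti-miR-mix. With age 1 of the 5 was called higher, Itga2b (0.44 ± 0.11, edgeR, adjusted p = 0.0383), and against young 2 of 5, Itgb3 (0.39 ± 0.11, adjusted p = 0.0285) and Itga2b (0.39 ± 0.11, adjusted p = 0.033). Of 6 lymphatic endothelium genes, Ccl21a was at or under 3 counts in every library and of the 4 tested 0 were called under anti-miR-mix or with age and 1 was called higher against young, Pdpn (0.59 ± 0.14, edgeR, adjusted p = 0.00944). Summed monocyte genes lay between 50.9 and 58.2 CPM in young, 52.9 and 59.2 CPM in old control and 53.7 and 67.5 CPM in old anti-miR-mix, with 0 of 8 tested called under anti-miR-mix, 4 at an unadjusted p under 0.05 and a median log2 fold change of 0.76. Of these 8, 0 were called with age and 1 was called higher against young, Ccr2 (1.43 ± 0.40, edgeR, adjusted p = 0.0332).

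Within groups, 9 such lists were set against the 9 members, giving 81 relations, of which 4 passed an adjusted p of 0.05 for r and 4 for rho. Siglec1 followed the 18 interferon response genes, with r = 0.88 and rho = 0.84 (permutation p = 3e-05 for each, adjusted 0.00243) and r = 0.84 without 2 libraries. The summed interferon list ran from 142 to 306 CPM in young, 154 to 235 CPM in old control and 183 to 448 CPM in old anti-miR-mix, and was highest in old anti-miR-mix replicate 4, the library with the highest Siglec1. Under anti-miR-mix 18 of 18 interferon genes had a fitted change above 0 (median 0.66), 11 had an unadjusted p under 0.05 and 1 was called, Lgals3bp (0.77 ± 0.18, adjusted p = 0.0448). Among the 18, 0 were at or under 3 counts in every library. The part of the interferon genes in the change of Siglec1 was not tested.

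F13a1 (by r and rho) and Cd163 (by r) passed with the 12 leptomeningeal fibroblast genes, which mark the pial covering where many of these macrophages sit. For F13a1 r was 0.71 and rho 0.79 (permutation p = 0.00105 and 0.00047, adjusted 0.0425 and 0.019), and r was 0.75 without 2 libraries. For Cd163 r was 0.74 and rho 0.62 (permutation p = 0.00218 and 0.00971, adjusted 0.0441 and 0.0812), and r was 0.45 without young replicates 4 and 6, the 2 libraries farthest from the median of the list, so the relation rested on them. Mrc1 passed by neither measure, where r was 0.71 and rho 0.65 (permutation p = 0.00338 and 0.01, adjusted 0.0515 and 0.0812), and r was 0.59 without the same 2 libraries. The summed leptomeningeal list ran from 64.7 to 287 CPM in young, 112 to 172 CPM in old control and 99.4 to 250.2 CPM in old anti-miR-mix, and its median log2 fold change with age was −0.72, with 0 of 12 called and 5 at an unadjusted p under 0.05. Young replicate 6, the highest of all libraries in Mrc1 and Cd163, was also the highest in this list, and young replicate 4 the lowest. The part of the leptomeningeal genes in the age differences of Mrc1 and Cd163 was not tested.

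Ms4a7 passed by r with the 13 homeostatic microglia genes (r = 0.70, rho = 0.67, permutation p = 0.00203 and 0.00417, adjusted 0.0441 and 0.0563) and had r = 0.74 with them without 2 libraries. Its r with activated microglia genes was 0.69 and rho 0.71 (permutation p = 0.00773 and 0.00729, adjusted 0.0755 and 0.0738). With blood endothelium genes Ms4a7 had r = 0.70 and rho = 0.69 (permutation p = 0.00418 and 0.00409, adjusted 0.0515 and 0.0563). Mrc1 with monocyte genes had r = 0.68 and rho = 0.71 (permutation p = 0.00839 and 0.00597, adjusted 0.0755 and 0.0691). The relations with activated microglia, blood endothelium and monocyte genes did not pass. Cbr2 with the choroid plexus genes had r = 0.62 and rho = 0.72 (permutation p = 0.0109 and 0.00164, adjusted 0.0803 and 0.0332). Siglec1 also had r = −0.66 and rho = −0.73 with red cell genes (permutation p = 0.00445 and 0.00134, adjusted 0.0515 and 0.0332).

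**Figure D4:**
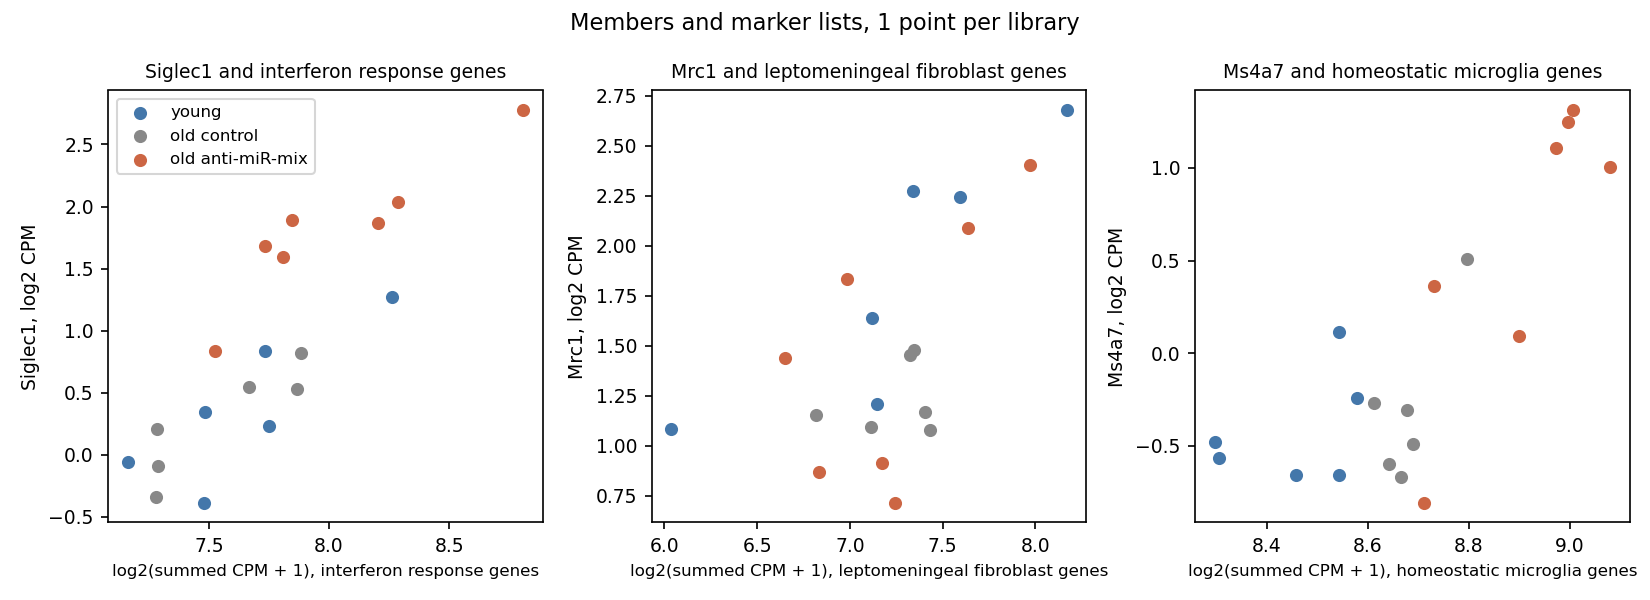
Each point is 1 library, with the summed level of a marker list as log2(summed CPM + 1) on the horizontal axis and the log2 CPM of a member on the vertical axis, coloured by group. The within-group r was 0.88 for Siglec1 with the interferon list, 0.71 for Mrc1 with the leptomeningeal list, which did not pass, and 0.70 for Ms4a7 with the homeostatic microglia list, and the 7 old anti-miR-mix points of Siglec1 lie above the 6 old control points.

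The genes whose within-group pattern was most like the mean of the 9 standardised members, among 15953 genes that averaged 20 counts or more per library, were Aldh1a2 (r = 0.86 over 19 libraries), Cped1 (0.85), Slc13a3 (0.85), Slc6a20a (0.85), Foxd1 (0.84), Slc13a4 (0.84), Serpind1 (0.84), Dab2 (0.83), Slc22a8 (0.83) and Efemp1 (0.82). Aldh1a2 is in the leptomeningeal list and Dab2 in the list of other border macrophage genes. Of these 10 genes, Slc13a3, a dicarboxylate transporter, was called with age (−0.65 ± 0.17, edgeR, adjusted p = 0.0429), and 0 of 10 were called under anti-miR-mix or against young.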

How the data were processed

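The members and gene lists were chosen with earlier results of these data known. The authors prepared polyadenylated RNA libraries (TruSeq v2, single-end, HiSeq), and the submitters' processing notes name FastQC 0.11.5, STAR 2.5.2b, featureCounts from Subread 1.5.1 and mm10. The deposited files held raw read counts per Ensembl gene for each library. A second deposited table held log2 values, equal to log2(CPM + 1) minus a gene's slope times a library number from 1 to 4, to within 3.4e-08, and was used for that number alone (the processing group). Groups came from the labels, and no deposited column of sample values (0) went unused.

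Tests covered the 19286 of 48709 genes that had 5 or more reads in 50% or more of the libraries, using edgeR 4.0.16 (R 4.3.3), TMM and its quasi-likelihood test, all 3 groups in 1 fit without covariates, and Benjamini-Hochberg adjustment at 0.05. The study used DESeq2, run here (1.42.0) as an alternative. The fit was tested on simulated data. Log2 CPM used a prior count of 2. Depth was 26653511 to 38908947 reads, and a count of 0 allows up to 3, for counting error only. Correlations used 100000 permutations of libraries within groups (Python 3.11.15, numpy 2.4.6). List genes were named by largest change among those called, up to 3 a direction, and similar genes by the 10 highest correlations with the members' mean. Gene coordinates and 3′UTR sequences were from GENCODE M21. Promoter windows and microRNA sequences were from RefSeq (GRCm38.p6), and the oligonucleotides from the study's list. No genome or protein sequences were used here. Some list genes are not reported here by name.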

Additional observations from a re-analysis of the deposited data

Results flagged for a closer look

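The highest and lowest library of each group were examined for all 9 members, 27 groups in all, and 1 stood out. Old control replicate 3 had a Ms4a7 level of 0.51 log2 CPM, while the next highest old control library was at −0.27, a gap of 0.66 of the range of the 6 libraries. Chance alone gives such a gap in about 1 of 20 groups. Without old control replicate 3 the log2 fold change of Ms4a7 under anti-miR-mix was 1.30 (edgeR, adjusted p = 0.0429), past the threshold, and that with age was −0.055, of opposite sign to 0.15 with it.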

How the results depend on the processing

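Across alternatives, Siglec1 under anti-miR-mix stayed above 0 in all 29. Its adjusted p (edgeR) was between 0.00205 and 0.0491 when 1 library was left out. Siglec1 lost its call with the processing group as a factor (0 members called). Siglec1 kept the call with the processing group as a linear term (1.64, edgeR, adjusted p = 0.0182), where 93 genes were called. It kept the call with old control replicates 5 and 6 summed (adjusted p = 0.0345) and lost it with that sum and the processing group factor together (0 members called, adjusted p = 0.235, chosen after seeing the data). Members called under anti-miR-mix were 3 with DESeq2 (Siglec1, Ms4a7 and Stab1), where 267 of 19286 genes were called. They were 1 to 3 with a library left out, where 23 to 247 genes were called. There were 3 without old anti-miR-mix replicate 1 (247 genes) and 2 without its replicate 6 or old control replicate 1 or 3. Against young they were 2 to 3, beside 1196 of 19286 genes called in the report. The members without overlap against young were 0 to 1 with a library left out, 1 without old anti-miR-mix replicate 6 (Siglec1) and 1 without its replicate 1 (Stab1). Over all tested genes and libraries the share without overlap was 2.42%.

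Genes called with age, 514 in the report, were 323 without the filter, 914 with DESeq2, 772 with only the 2 groups, 305 with old control replicates 5 and 6 as 1 library, 223 when the processing group was added to that, and 212 (without young replicate 4) to 691 with a library left out. Genes called under anti-miR-mix, 129 in the report, were 267 with DESeq2, 55 with only the 2 groups, 9 with the processing group as a factor, 33 with old control replicates 5 and 6 as 1 library, 6 with both, and 23 (without old control replicate 5) to 247 (without old anti-miR-mix replicate 1). Genes called against young, 1196 in the report, were 930 without the filter, 1520 with DESeq2, 890 with only the 2 groups and 892 to 1256 with a library left out. The median correlation over pairs was 0.59 with processing group means removed and 0.27 to 0.39 with a library left out.

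Whether replicate numbers pair the libraries cannot be told from these values. The 18 same-numbered pairs had correlations of deviations from −0.17 to 0.21, 6 over 0.1, and differently numbered pairs were not compared. With the replicate block on replicates 1 to 6, 246 genes and 2 members, Siglec1 and Ms4a7 (adjusted p = 0.0419), were called under anti-miR-mix, against 109 genes in the same libraries without the block. With the block the age change of Lyve1 was 0.056 and the change of F13a1 against young −0.0041.

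Signs turned for changes near 0, none of them called. With age, Lyve1 was 0.032 with old control replicates 5 and 6 as 1 library, Pf4 −0.14 with the processing group as a factor, and with both Pf4 was −0.091 and Siglec1 0.0052. With a library left out, age changes ran from −0.14 to 0.16 for Lyve1, −0.31 to 0.082 for Siglec1, −0.055 to 0.28 for Ms4a7 and −0.12 to 0.23 for Pf4. Pf4 ran from −0.084 to 0.32 under anti-miR-mix and from −0.030 to 0.38 against young, and F13a1 from −0.19 to 0.18 against young. The causes were not tested. Pf4, with 4 to 22 reads, and Cbr2, with 6 to 26, are limited by depth.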
